A study of Mus musculus with 10 samples.

Results

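The relaxin family examined here comprised 8 of the 30935 genes of the count table: the 4 receptor genes Rxfp1, Rxfp2, Rxfp3 and Rxfp4 and the 4 ligand genes Rln1, Rln3, Insl3 and Insl5. The family was chosen by its Rxfp1 counts, which were already known to be higher in the knockout libraries, so the Rxfp1 difference is given as a description, without a test. 10 RNA sequencing libraries were made from mouse cerebral cortex taken on postnatal day 8. 5 were from mice homozygous for the deletion of HAR.505 in the Rbfox1 locus (replicates 1, 3, 5, 6 and 8), a genotype the sample labels call 2xHAR.505 Knockout. The other 5 were from wild-type mice with 2 intact alleles (replicates 2, 4, 5, 6 and 7). The sources used here state neither the strain, the sex nor how the deletion was made, and each library is described as an independent sample. HAR.505 is a human accelerated region, a conserved noncoding element with an excess of human-specific base changes, and gene counts do not cover it, so they do not check the genotype labels. Rbfox1 itself stood at 215 CPM (counts scaled to a common library total) in knockout and 224 CPM in wild type (log2 fold change -0.06, SE 0.063).

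Relaxin peptides are small secreted hormones of the insulin superfamily, cut from larger precursors into chains joined by disulfide bonds. Rxfp1 and Rxfp2 are receptors with a large extracellular domain of leucine-rich repeats and act mainly through stimulatory G proteins and cyclic AMP, whereas Rxfp3 and Rxfp4 are compact peptide receptors that act through inhibitory G proteins and lower cyclic AMP. In the rat brain, labelled relaxin binds to the neocortex, and relaxin-3 is made mainly by brainstem neurons whose fibres reach the forebrain. In bulk tissue, a difference in the number of cells of a type and a difference in RNA per cell cannot be told apart.

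Library totals ran from 16479594 to 22391943 counts. Marker sums of striatum, of choroid plexus and ependyma, and of blood were lower in most knockout libraries. The 8 septal, hypothalamic and amygdala genes summed to 36.5 to 46.5 CPM in knockout and 42.2 to 50.6 CPM in wild type. The 7 thalamic genes summed to 155 to 181 CPM in knockout and 173 to 188 CPM in wild type. Both lists ran lower in the knockout, with overlapping ranges. The 7 meningeal and mural genes did not follow this, at 314 to 420 CPM in knockout and 311 to 371 CPM in wild-type libraries. The summed level of 14 striatal projection neuron genes ran from 218 to 283 CPM in knockout and from 276 to 428 CPM in wild-type libraries. That of 12 choroid plexus and ependymal genes ran from 22.4 to 243 CPM in knockout and from 259 to 322 CPM in wild-type libraries. The 5 red blood cell genes summed to 386 to 422 CPM in knockout replicates 1, 3, 5 and 6 and to 693 CPM in knockout replicate 8, against 483 to 683 CPM in wild-type libraries. Among the striatal, choroid plexus and ependymal markers, Isl1 and Otx2 were at 0 in 2 knockout libraries each, and Ttr and Tmem212 were at 0 in 1 knockout library each. Of the septal, hypothalamic and amygdala markers, Lhx8 was at 0 in 4 knockout libraries and Otp in 2, and neither in wild type. Sim1 was at 0 in 4 libraries, in both genotypes. The 7 markers of cortical excitatory neurons summed to 1545 to 1667 CPM in knockout and 1473 to 1558 CPM in wild-type libraries, with Slc17a7 the highest, so the labelled tissue carried its defining markers in every library.

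Rxfp1, the receptor for relaxin itself, was the most highly counted member and was higher in knockout cortex. In replicate order it stood at 79.9, 86.3, 71.3, 79.1 and 66.5 CPM in the knockout libraries. In wild-type libraries the values were 56.1, 55.7, 51.3, 63.0 and 57.5 CPM. Every knockout library lay above every wild-type library, with a gap of 3.47 CPM between knockout replicate 8, the lowest of its genotype, and wild-type replicate 6, the highest. Over all 15488 tested genes, 0.93% had every knockout library above every wild-type library. The means were 76.6 ± 7.78 CPM in knockout and 56.7 ± 4.22 CPM in wild type (SD, n = 5 each), and the fit across all genes gave a log2 fold change of 0.43 with a standard error of 0.068, a fold of 1.35.

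The Rxfp1 counts were high enough that counting error was a small part of the spread. The libraries held between 1165 and 1564 Rxfp1 counts in knockout and between 886 and 1402 in wild type. The coefficient of variation between libraries was 10.1% in knockout and 7.44% in wild type, against 2.74% and 3.01% from counting alone. Rxfp1 had a higher mean CPM than 75.5% of the tested genes.

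**Figure D1:**
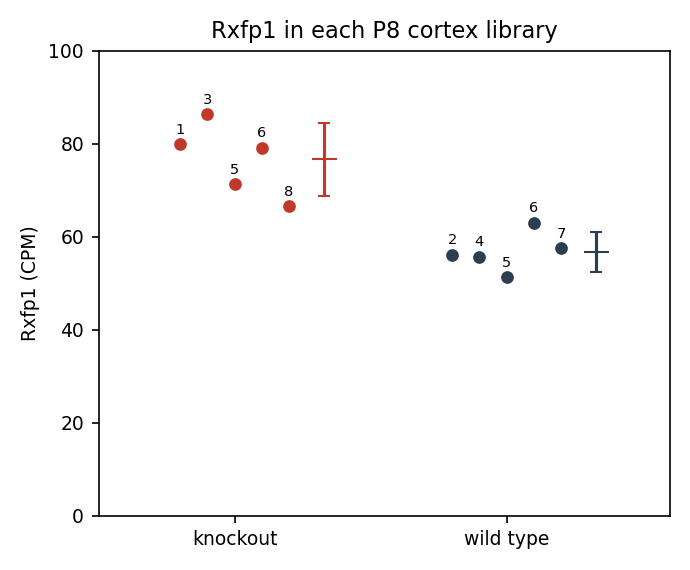
Rxfp1 in CPM (vertical axis, linear from 0) in each library, labelled with its replicate number, with knockout left of wild type; the bars show the mean ± SD of 5 libraries. The 5 knockout points lie between 66.5 and 86.3 CPM, all above the wild-type points, which lie between 51.3 and 63.0 CPM.

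Rxfp1 was set beside the marker sums of neighbouring tissue. Knockout replicate 8, the knockout library with the least Rxfp1, had the highest striatal sum of its genotype, at 283 CPM. Knockout replicate 3, with the most Rxfp1, had the lowest striatal sum, at 218 CPM. Wild-type replicate 5, with the least Rxfp1 of all 10 libraries, had the highest striatal sum of all, at 428 CPM. The order was not the same throughout, because wild-type replicate 6, with the most Rxfp1 of its genotype, had the second-highest wild-type striatal sum, at 308 CPM. Knockout replicate 8 also had the highest red blood cell sum of the 10 libraries, and the part of blood in the Rxfp1 difference was not tested. With the mean level of the striatal list as a covariate, the Rxfp1 log2 fold change was 0.19 (SE 0.12). Of the 14 striatal genes, edgeR called 3, all lower, or 21.4% against 0.381% of all tested genes. 13 of the 14 had an unadjusted edgeR p under 0.05, 12 lower and 1 higher, against 8.71% of all tested genes. This covariate therefore went with genotype, and the 2 cannot be told apart in these libraries. The part of striatal RNA in the Rxfp1 difference was not tested.

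The choroid plexus sums were compared in the same way. Knockout replicate 1 held 243 CPM of the choroid plexus and ependymal genes, the highest of its genotype. The lowest wild-type library held 259 CPM. Rxfp1 stood at 79.9 CPM in knockout replicate 1, above every wild-type library. Ttr made up most of the wild-type sums, at a mean of 255 CPM. It was at most 200 CPM in knockout and at least 213 CPM in wild type. For Ttr, Clic6 (at most 2.39 CPM in knockout, at least 3.62 CPM in wild type) and Tmem72 (3.71 and 4.14 CPM), every knockout library lay below every wild-type library. This held for 0.897% of all tested genes. Cldn1 averaged 8.10 CPM in knockout and 6.37 CPM in wild type, and was the 1 gene of the 12 with a positive log2 fold change. The log2 fold change of Rxfp1 was 0.37 (SE 0.085) with knockout replicates 1 and 8 alone set against all 5 wild-type libraries. These were the knockout libraries with the highest choroid plexus sums, at 243 and 106 CPM. Replicate 8 lay well below the lowest wild-type library, so this fit does not match the genotypes for choroid plexus. With the choroid plexus and ependymal list as a covariate the Rxfp1 log2 fold change was 0.34 (SE 0.10). With any single library left out it lay between 0.39 and 0.48. Of the 12 choroid plexus and ependymal genes, edgeR called 2, both lower, or 16.7% against 0.381% of all tested genes. 7 of the 12 had an unadjusted edgeR p under 0.05, all lower in the knockout, against 8.71% of all tested genes. This covariate also went with genotype, and the part of choroid plexus RNA in the Rxfp1 difference was not tested.

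**Figure D2:**
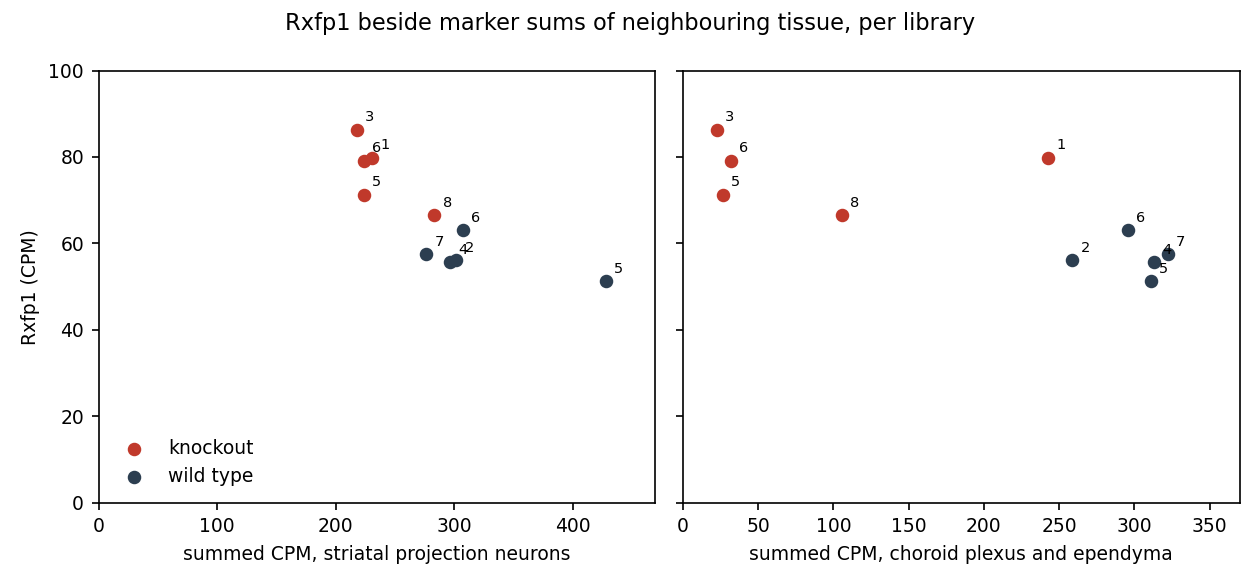
Rxfp1 in CPM (vertical axis) against the summed CPM of 14 striatal genes (left) and of 12 choroid plexus and ependymal genes (right) in the 10 libraries, labelled with their replicate numbers. Knockout replicate 8 has the highest striatal sum and the lowest Rxfp1 level of the knockout libraries, and knockout replicate 1 has high Rxfp1 at a choroid sum of 243 CPM.

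Markers of cortical neuron classes were also compared. The 6 layer 5 markers summed to 513 to 656 CPM in knockout and 516 to 557 CPM in wild type, and the ranges overlapped. Single markers moved in both directions. edgeR called 0 of the 6, and 4 had an unadjusted p under 0.05, 3 higher and 1 lower, against 8.71% of all tested genes. Tshz2 (81.6 to 144 CPM in knockout, 65.7 to 73.1 CPM in wild type) and Fezf2 (51.3 to 62.9 and 47.3 to 49.8 CPM) were wholly higher, as were 0.93% of all tested genes. Bcl11b averaged 123 CPM in knockout and 135 CPM in wild type. Knockout replicate 8, lowest of the knockout libraries for Rxfp1, was also the lowest for layer 5 markers, but knockout replicate 3, the highest for Rxfp1, had 603 CPM of these markers against 656 CPM in knockout replicate 6. Wild-type replicate 6, the highest of its genotype for Rxfp1, had the second-lowest wild-type layer 5 sum, at 530 CPM. The 8 markers of somatostatin interneurons summed to 601 to 663 CPM in knockout and 625 to 643 CPM in wild type. Of these, 4 had an unadjusted edgeR p under 0.05, all lower. Satb1, the highest of the 8, averaged 246 CPM in knockout and 222 CPM in wild type. The 7 markers of layer 6, subplate and claustrum neurons summed to 377 to 421 CPM in knockout and 391 to 435 CPM in wild type. They include Gnb4, at a mean of 136 CPM in knockout and 160 CPM in wild type, and 4 of the 7 had a positive log2 fold change. 2 of the 7 had an unadjusted edgeR p under 0.05, both lower. edgeR called 1 of them, Gnb4, or 14.3% of the list against 0.381% of all tested genes. None of the defining markers of these 3 lists was at 0 in any of the 10 libraries, and their part in the Rxfp1 difference was not tested.

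**Figure D3:**
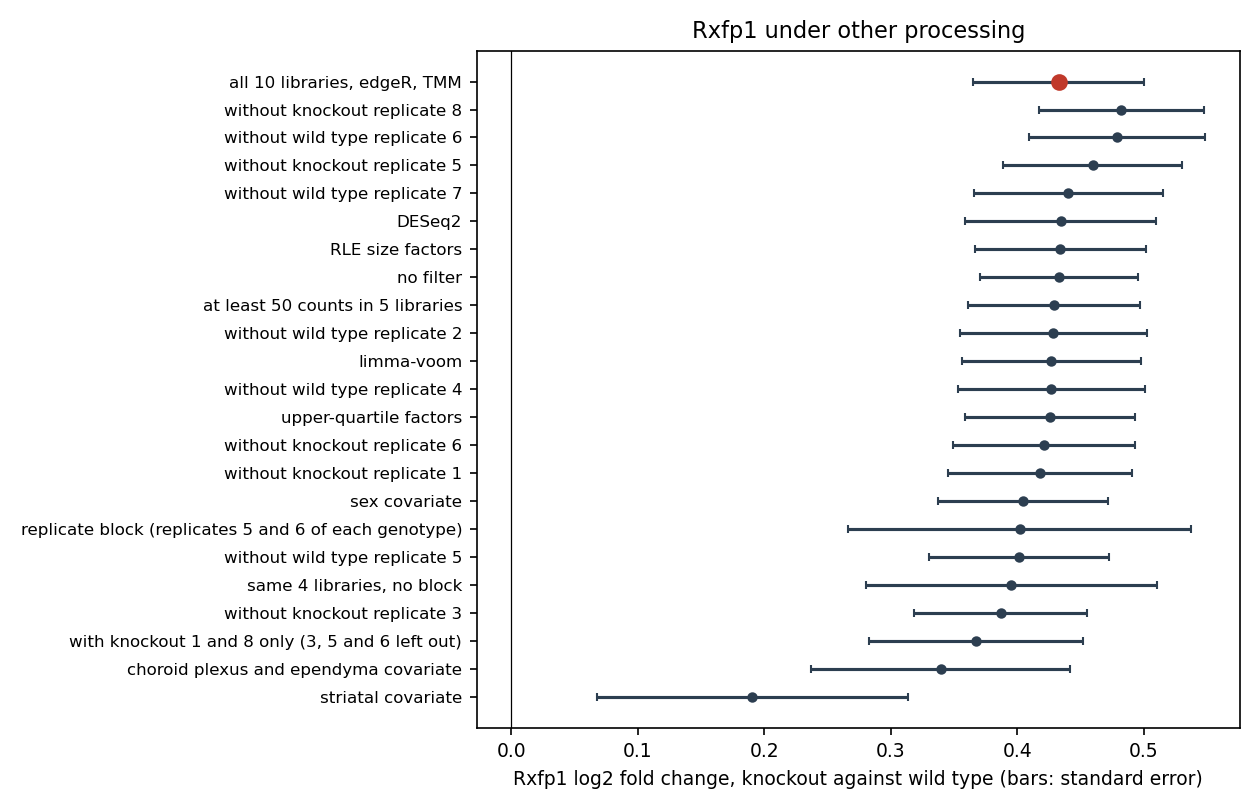
Log2 fold change of Rxfp1, knockout against wild type (horizontal axis, with standard errors as bars), with all 10 libraries in edgeR (top, red) and under 22 other settings, ordered by value. All values are above 0, between 0.19 with the striatal covariate and 0.48 without knockout replicate 8.

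Rxfp3, the receptor for relaxin-3, was the other receptor with more than 50 counts in every library. Its level was 9.58, 6.96, 9.43, 11.2 and 5.82 CPM in the knockout libraries in replicate order. In the wild-type libraries it was 9.23, 10.6, 10.1, 9.67 and 9.21 CPM. The ranges overlapped, with knockout replicates 3 and 8 below every wild-type library and knockout replicate 6 above every wild-type library. The log2 fold change was -0.18 (SE 0.15), short of the threshold of 0.05 of the edgeR quasi-likelihood test (p adjusted over all tested genes = 0.817). The 95% interval of the fold ran from 0.713 to 1.09, so changes of Rxfp3 of the size seen for Rxfp1 in the upward direction lay outside it. The spread was wider in the knockout, where the coefficient of variation was 25.2%, against 6.05% in wild type, with 8.19% and 7.28% from counting alone.

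The balance of the 2 receptors that were well counted can be given without any scaling of the libraries. Per Rxfp3 count, the knockout libraries held 8.34, 12.4, 7.56, 7.06 and 11.4 Rxfp1 counts in replicate order. The same ratio in wild-type libraries was 6.08, 5.27, 5.06, 6.52 and 6.24. The genotypes did not overlap, and the highest ratios belonged to knockout replicates 3 and 8, the libraries with the least Rxfp3. As Rxfp1 enters the ratio, this is a description without a test.

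Rxfp2, the receptor for Insl3, known for its role in the descent of the testis, had between 4 and 28 counts in the knockout libraries and between 6 and 23 in the wild-type libraries. Its level was 1.32, 0.386, 0.245, 0.334 and 1.57 CPM in knockout libraries and 1.21, 0.483, 0.579, 0.270 and 0.560 CPM in wild-type libraries, in replicate order. 3 libraries stood above the rest, knockout replicates 1 and 8 and wild-type replicate 2. Knockout replicates 1 and 8 were also those with the highest choroid plexus sums of their genotype, at 243 and 106 CPM, while wild-type replicate 2 had the lowest of its genotype. The log2 fold change of 0.32 (SE 0.51) was not called by edgeR (adjusted p = 0.931). It was -0.11 without knockout replicate 8 and 0.71 without wild-type replicate 2. It was 1.57 (SE 0.66) with the choroid plexus and ependymal list as a covariate, 1.82 (SE 0.85) with the striatal list, and 1.22 (SE 0.54) with knockout replicates 1 and 8 alone against all wild-type libraries, and edgeR called none of these. The coefficient of variation between libraries was 80.8% in knockout and 56.5% in wild type, against 27.3% and 29.1% from counting alone. Exons of Rxfp2 share 294 bases with the predicted gene Gm42557 on the opposite strand, and reads of that stretch cannot be told apart without a stated strand setting.

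Rxfp4, the receptor for Insl5, had 0 counts in all 10 libraries. Set against the 184013960 counts of all libraries together, a count of 0 allows up to 0.0163 CPM, taken as 3 counts, from counting error only. Rxfp4 transcripts were not detectable at this depth in either genotype.

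Among the ligands, Rln1, the mouse gene for relaxin, was the one present in every library. It stood at 1.50, 0.607, 1.47, 2.40 and 0.615 CPM in the knockout libraries and at 0.944, 1.61, 0.174, 0.944 and 1.17 CPM in the wild-type libraries, in replicate order. The genotypes overlapped, with knockout replicate 6 the highest and wild-type replicate 5 the lowest. These levels rest on 11 to 43 counts in knockout and 3 to 30 counts in wild-type libraries, and the coefficient of variation between libraries was 56.5% in knockout and 53.8% in wild type, against 20.9% and 22.9% from counting alone. The log2 fold change was 0.43 (SE 0.44), which edgeR did not call (adjusted p = 0.875). Its point value was close to that of Rxfp1, but its 95% interval ran from a fold of 0.722 to a fold of 2.52.

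The 3 other ligands did not pass the filter on low counts. Insl5, a peptide of gut endocrine cells, had 15 counts in knockout and 19 in wild-type libraries and was detected in 4 libraries of each genotype. Rln3, the gene for relaxin-3, had 4 counts in knockout libraries, all in replicate 1, and 3 counts in wild-type libraries, spread over 3 of them. Of the 6 hindbrain markers, Hoxa2, Hoxb2 and Hoxb3 were at 0 in all 10 libraries, and the list summed to 0.221 to 1.34 CPM in knockout and 0.174 to 0.997 CPM in wild type. In the edgeR fit without the filter, Insl5 (adjusted p = 0.976) and Rln3 (adjusted p = 0.943) did not pass, where 0.733% of 23319 genes did.

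Insl3, a peptide of Leydig cells of the testis, was counted in 4 of 5 knockout libraries and in 1 of 5 wild-type libraries. The counts summed to 16 in knockout and 3 in wild type, a ratio of 5.92 after division by the library totals, with an exact 95% interval from 1.69 to 31.7 that covers counting error only. With the spread between libraries taken into account, Insl3 was not called by edgeR without the filter (adjusted p = 0.614). In the GENCODE M21 annotation 64.8% of the exon bases of Insl3 are shared with Jak3, a cytokine receptor kinase gene on the same strand, so reads of the 2 genes are hard to assign. Jak3 stood at 12.3 CPM in knockout and 12.2 CPM in wild-type libraries, a log2 fold change of 0.01 (SE 0.12).

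**Figure D4:**
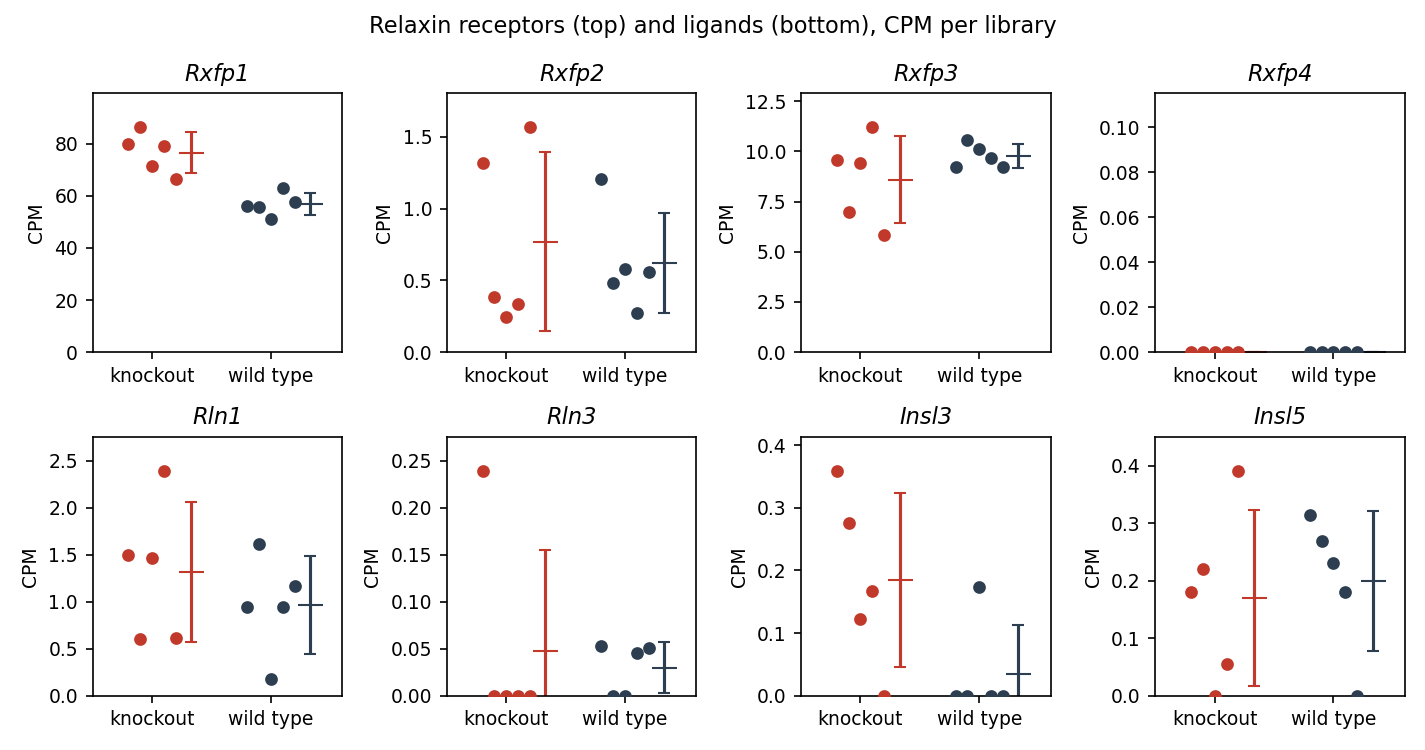
CPM (vertical axes, linear from 0, a separate scale for each gene) of the 4 receptor genes (top) and the 4 ligand genes (bottom) in each knockout and wild-type library; the bars show the mean ± SD of 5 libraries and stop at 0. The 2 genotypes are apart for Rxfp1 and overlap for the 7 others, with Rxfp4 at 0 throughout.

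7 of the 8 members were detected in at least 1 library, 4 of them (Rxfp1, Rxfp2, Rxfp3 and Rln1) in all 10, and these 4 were also the members that passed the filter. Rxfp1 alone held 85.4% of the 14282 counts of the family and Rxfp3 held 11.8%. The call of Rxfp1 among all genes chose the family, and nothing is read from it. Of the 3 other members past the filter, edgeR called 0, and 0 had an unadjusted p under 0.05, where 0.381% of all tested genes were called in either direction and 0.187% in the higher direction. The 4 remaining members entered no test with the filter.

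Levels of different members were compared per kilobase of exon, using the merged exon lengths of all GENCODE M21 transcripts of each gene, which may be longer than the transcripts used in cortex. On this scale Rxfp1 had the highest level, at 7.62 ± 0.774 CPM per kilobase in knockout and 5.64 ± 0.42 in wild type (SD, n = 5 each). Rxfp3 followed at 2.01 ± 0.508 CPM per kilobase in knockout and 2.28 ± 0.138 in wild type. The ranges of Rxfp1 and Rxfp3 did not overlap in either genotype.

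All other members were far lower per length. Rln1 averaged 0.376 ± 0.213 CPM per kilobase in knockout and 0.277 ± 0.149 in wild type. Insl5 averaged 0.234 ± 0.211 in knockout and 0.275 ± 0.168 in wild type. Rxfp2 averaged 0.135 ± 0.109 in knockout and 0.109 ± 0.0616 in wild type. Insl3 averaged 0.297 ± 0.223 in knockout and 0.0558 ± 0.125 in wild type, and Rln3 was the lowest detected member in both genotypes, at 0.0755 ± 0.169 in knockout and 0.0468 ± 0.0429 in wild type. With these lengths, Insl3 lay above Insl5 and Rxfp2 in knockout and below both in wild type. The place of Insl3 in this order is uncertain. Its wild-type value rests on 3 counts in 1 library. Its full exon length was used although 64.8% of its exon bases are shared with Jak3, and the rule for such reads is not stated. Differences between members were not tested.

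The start regions of Rxfp3 and Rln1, the most highly counted receptor and ligand among the 7 members with an entry in the RefSeq promoter table (GRCm38.p6), are shown with their CG dinucleotides in capitals. Each covers 250 bases before and 50 bases after the annotated start, on the minus strand, at chr15:11037919-11038218 for Rxfp3 and chr19:29334621-29334920 for Rln1.
Rxfp3: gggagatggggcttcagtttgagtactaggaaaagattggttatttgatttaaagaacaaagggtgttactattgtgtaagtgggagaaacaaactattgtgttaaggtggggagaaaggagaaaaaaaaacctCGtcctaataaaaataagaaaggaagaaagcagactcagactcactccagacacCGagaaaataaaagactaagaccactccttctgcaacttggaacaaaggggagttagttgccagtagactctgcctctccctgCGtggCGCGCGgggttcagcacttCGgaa
Rln1: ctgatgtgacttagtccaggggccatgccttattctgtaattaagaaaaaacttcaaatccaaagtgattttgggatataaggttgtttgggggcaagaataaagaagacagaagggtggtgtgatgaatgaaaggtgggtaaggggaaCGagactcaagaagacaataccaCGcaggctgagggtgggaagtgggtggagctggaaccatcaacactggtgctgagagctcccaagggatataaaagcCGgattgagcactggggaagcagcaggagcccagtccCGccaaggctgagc
Rxfp3 held 7 CG dinucleotides, most of them close to the start, and Rln1 held 4, against a median of 7 over 32851 promoters of the same length. Rxfp1 has no entry in that table.

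Genes around the receptors were taken from 10 lists of relatives, processing enzymes and signalling components. Of their 136 genes, 128 passed the filter, and 1 was called, lower in the knockout, which is 0.781% against 0.381% of all tested genes called in either direction and 0.194% called lower. 17 of the 128 had an unadjusted edgeR p under 0.05, 6 higher and 11 lower, or 13.3% against 8.71% of all tested genes. The median log2 fold change of the 128 was -0.012, against -0.0021 over all tested genes. DESeq2 called 2 of these genes, Gnb4 and Pcsk2, and limma-voom called 0.

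The gene called was Gnb4, which encodes a beta subunit of G proteins and is also a marker of claustrum neurons. Gnb4 stood at 134, 127, 141, 125 and 152 CPM in the knockout libraries and at 154, 154, 160, 161 and 169 CPM in the wild-type libraries, in replicate order. Every knockout library lay below every wild-type library, which held for 0.897% of all tested genes. It fell by 0.23 on the log2 scale (SE 0.053, edgeR adjusted p = 0.041), and it kept the call in 1 of the 10 leave-one-out fits, that without knockout replicate 8. The 13 other tested genes of inhibitory G proteins and of beta and gamma subunits, among them Gng3 (log2 fold change 0.06, SE 0.046), did not pass.

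Enzymes that mature peptide hormones included the gene nearest to the threshold on the higher side. Pcsk2, which encodes prohormone convertase 2, stood at 237, 229, 228, 204 and 227 CPM in the knockout libraries. In the wild-type libraries it stood at 188, 196, 195, 209 and 192 CPM. The genotypes overlapped because knockout replicate 6 lay below wild-type replicate 6. The log2 fold change was 0.20 (SE 0.048, edgeR adjusted p = 0.0615), and Pcsk2 passed with DESeq2 (adjusted p = 0.0157) and in 3 of the 10 leave-one-out fits. Cpe, which encodes the carboxypeptidase that trims the cut peptides, was at 0.10 on that scale (SE 0.046), and 0 of the 9 genes of this list passed the edgeR test.

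The signalling branch of Rxfp1 through cyclic AMP had 22 tested genes, from the stimulatory G protein to protein kinase A and its transcription factors. 0 passed the edgeR test and 3 had an unadjusted p under 0.05, and the median log2 fold change was -0.0056. The cyclase genes with the smallest p were Adcy5 (log2 fold change -0.13, SE 0.045), whose product is abundant in striatum, and Adcy2 (0.12, SE 0.051). Of 11 tested phosphodiesterase genes that break down cyclic nucleotides, 0 passed and 2 had an unadjusted p under 0.05, both lower, namely Pde1c (-0.38, SE 0.13) and the striatal enzyme gene Pde10a (-0.35, SE 0.13). Adcy5, at 218 to 239 CPM in knockout and 243 to 258 CPM in wild-type libraries, and Pde1c, at 7.22 to 8.14 CPM in knockout and 8.66 to 11.0 CPM in wild-type libraries, were wholly lower in the knockout, as were 0.897% of all tested genes.

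The kinase branches were counted in the same way. Of 13 genes of PI3 kinase, Akt and protein kinase C zeta, 0 passed and 2 had an unadjusted edgeR p under 0.05, both higher, with Akt2 at 0.18 (SE 0.053) and Prkcz, the atypical kinase that relaxin signalling engages, at 0.11 (SE 0.046). Akt2 stood at 102 to 118 CPM in knockout and 92.7 to 101 CPM in wild-type libraries, without overlap, where 0.93% of all tested genes lay wholly higher in the knockout. Of 19 genes of arrestins and MAP kinases, 0 passed and 3 had an unadjusted p under 0.05, among them the Ras exchange factor gene Sos1 (-0.14, SE 0.056).

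Nitric oxide and matrix genes lie downstream of relaxin in vessels and connective tissue. Of 9 tested genes of nitric oxide and cyclic GMP, 8 had a negative log2 fold change, with a list median of -0.11. Over all 15488 tested genes, 7878 had a negative value. In this list 0 passed the edgeR test and 1 had an unadjusted p under 0.05, the phosphodiesterase gene Pde5a (-0.36, SE 0.12). Gucy1b1, which encodes a subunit of the nitric oxide receptor, had a log2 fold change of 0.10 (SE 0.052). Of 21 tested genes of matrix remodelling and vascular targets, 0 passed and 1 had an unadjusted p under 0.05. This was the signal transducer gene Smad3 (-0.24, SE 0.098), followed by Tgfbr1 (-0.16, SE 0.10), and the list median was -0.033.

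The structural relatives were also compared. Of 5 tested genes of leucine-rich repeat receptors, 0 passed the edgeR test and 1 had an unadjusted p under 0.05, the luteinizing hormone receptor gene Lhcgr (log2 fold change -1.05, SE 0.49). Lhcgr stood at only 0.457 ± 0.197 CPM in knockout and 0.972 ± 0.661 CPM in wild-type libraries (SD, n = 5 each). Lgr6 had a log2 fold change of 0.26 (SE 0.18). Of 5 tested genes of the insulin superfamily and its receptors, 0 passed and 1 had an unadjusted p under 0.05, the insulin receptor gene Insr (-0.17, SE 0.065). All 5 had negative values, as had 7878 of all 15488 tested genes, with Igf1 at -0.12 (SE 0.077).

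**Figure D5:**
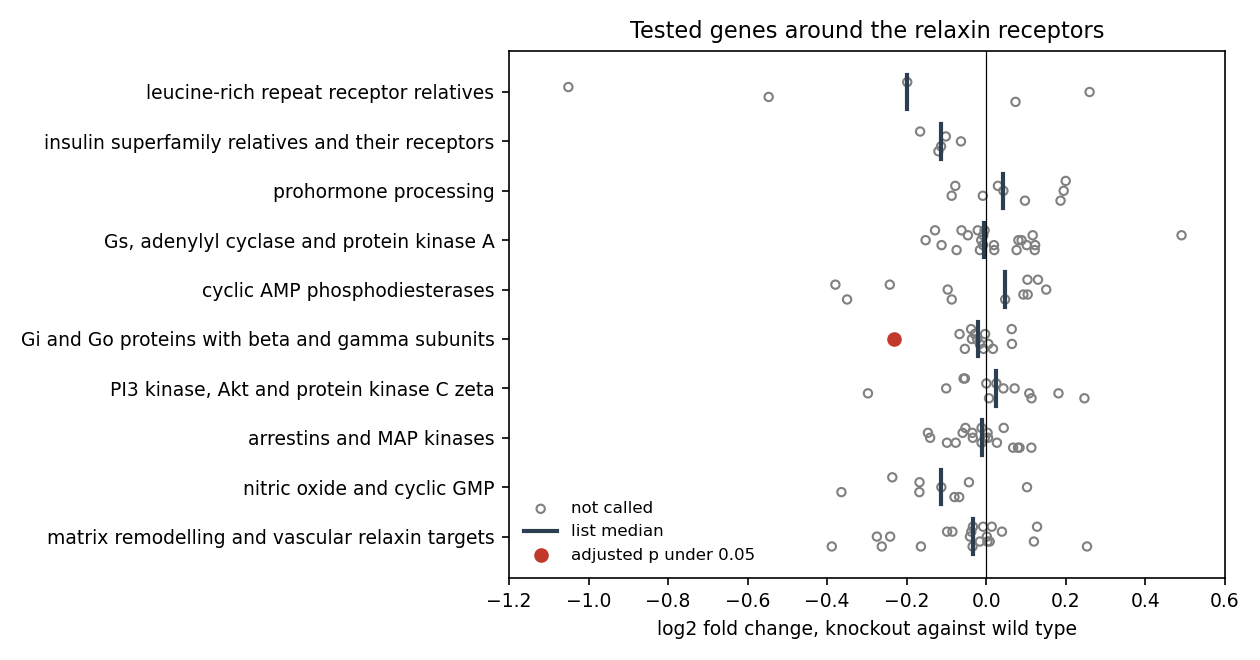
Log2 fold change of each tested gene, knockout against wild type (horizontal axis), in the 10 lists around the relaxin receptors, with the median of each list as a vertical bar. The filled red point is Gnb4 at -0.23, the gene with an edgeR adjusted p under 0.05, and the list medians lie between -0.20 and 0.048.

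Genes whose profile over the 10 libraries was most like that of Rxfp1 were found by the root mean square difference of log2 CPM after each gene was centred on its own mean. The closest were Grp (0.0854), which encodes gastrin-releasing peptide, Galnt9 (0.101), a glycosyltransferase gene, and Gprc5b (0.106), an orphan receptor gene. The secreted Dickkopf gene Dkk3 (0.106), the transcription factor gene Zbtb16 (0.107) and Prex2 (0.109), which encodes a Rac exchange factor, followed. A gene with no variation at all would be at 0.244 from Rxfp1, and the median over all tested genes was 0.290. This measure includes the genotype difference that chose Rxfp1, and nothing is tested with it.

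Within genotype the nearest genes were different. With each gene centred on its mean in each genotype, the closest were Myrip (0.0403), Flcn (0.0443) and Dnajc27 (0.049), against 0.115 for a gene with no variation within genotype and a median of 0.179. Zfp629 (0.0529), Colgalt1 (0.0556) and Hgsnat (0.058) followed. No gene was among the first 6 on both scales. Myrip, which encodes a linker of vesicles to myosin, was at a log2 fold change of 0.23 (SE 0.063), and Flcn, the folliculin gene, was at -0.05 (SE 0.076).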

How the data were processed

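Libraries came from total RNA of the Qiagen RNeasy kit, per the labels. The authors deposited 1 table of raw counts per gene with Entrez identifiers. Alignment was by HISAT2 and counting by featureCounts, on mm39, per the submitters' processing notes, and the sources used here give no versions, annotation, strand setting or rule for multiply mapped reads. Symbols came from RefSeq (GRCm38.p6), which matched 30648 of 30935 identifiers and all 231 list entries, and exon lengths from GENCODE M21 (GRCm38). The members and lists were chosen with earlier results of these data known. edgeR 4.0.16 in R 4.3.3 was run with filterByExpr (minimum count 10), TMM scaling, the robust quasi-likelihood test with genotype as the only term, and Benjamini-Hochberg adjustment over 15488 genes (threshold 0.05). P-values set the genotype difference against the spread between these samples. CPM use TMM-scaled totals, and log2 CPM profiles a prior count of 2. The intervals of counts cover counting error only.

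Genes named are the 8 members, each listed gene that was called, the 2 genes of smallest p of each list, the first markers of a list and the 6 nearest profiles, with predicted genes passed over. Some genes that this rule takes are not reported here and stay in the counts. Isl1, Otx2, Ttr, Tmem212, Lhx8, Otp, Sim1, Clic6, Tmem72, Tshz2, Fezf2, the Hox genes and Jak3 were named after their values were seen. Alternatives were RLE and upper-quartile scaling, DESeq2 1.42.0, limma-voom (limma 3.58.1), 2 other filters (none, and a minimum of 50 counts in 5 libraries), each library left out, a replicate block, knockout replicates 3, 5 and 6 left out, and covariates for striatal genes, choroid plexus genes and sex (from Xist and Y-linked counts). The unblocked fit of the 4 libraries of the block was added after the data were seen. The analysis was tested on simulated data. Replicates 5 and 6 are numbers that both genotypes carry, and nothing in the labels ties them to a shared litter or batch.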

Additional observations from a re-analysis of the deposited data

Results flagged for a closer look

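In 3 of the 54 groups of 5 libraries examined, an extreme library was separated from its 4 neighbours by most of the range of the group, which chance gives in about 1 of 20 groups of continuous values. That rate does not apply to the Rln3 and Insl3 groups, where 4 of the 5 libraries were at 0. Knockout replicate 1 was highest for Rln3, at 0.239 CPM, where the 4 other knockout libraries had no count. Wild-type replicate 5 was highest for Insl3, at 0.174 CPM, where the 4 other wild-type libraries had no count. Wild-type replicate 5 was also highest for Pde10a, at 118 CPM, and it had the highest striatal marker sum of the 10 libraries, a sum that includes Pde10a.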

How the results depend on the processing

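Rxfp1 was higher in the knockout under all 22 alternatives, by 0.19 to 0.48 on the log2 scale (0.39 to 0.48 with 1 library left out), and by 0.19 with the striatal covariate. Rxfp3 was negative in 20 of 22 alternatives and passed the test in 0. The replicate block over replicates 5 and 6 of each genotype gave Rxfp1 0.40, Rxfp3 0.059, and 29 called genes over all genes and 0 in the pathway lists. Without the block the same 4 libraries gave 0.063 for Rxfp3, and 10 and 0 calls. The deviations of libraries with the same number were correlated at -0.030 and -0.057 over genes. Rxfp2 lay between -0.11 and 0.71 with 1 library left out and reached 1.82 with the striatal covariate. Rln1 ran from -1.14 with the striatal covariate to 1.95 with the replicate block; the cause was not tested. Of Rxfp2, Rxfp3 and Rln1, 0 were called in the 19, 22 and 21 alternatives that gave them a value, DESeq2 and limma-voom included, and with all 10 libraries in edgeR 0 had an unadjusted p under 0.05.

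The count of 59 called genes was 15 to 182 with 1 library left out, 171 with no filter, 124 with DESeq2, 28 with the sex covariate and 12 without knockout replicates 3, 5 and 6. In edgeR it was 0 with the choroid covariate and 0 with the striatal covariate, where 766 and 603 genes had an unadjusted p under 0.05. The count of 1 called pathway gene was 0 to 4 with 1 library left out, 2 with no filter and with DESeq2, and 0 with limma-voom and with the sex, choroid and striatal covariates (16, 18, 11 and 6 at an unadjusted p under 0.05). For Rxfp2 and Rln1 the spread between libraries exceeded counting error, and for the rarer ligands counts limit what can be compared. The strict filter left Rxfp2 and Rln1 out, and the filter left Rxfp2 out of both fits of 4 libraries.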
